A study of Mus musculus with 10 samples.

Results

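The Slc25 family, the mitochondrial carriers, was read in mouse livers with diet-induced steatohepatitis that received a microRNA vector or a control vector. Members were chosen by symbol, as every gene of the deposited table named Slc25a followed by a number. This gave 45 of the 17274 genes of the table. Of these, 37 passed the minimum for testing, a mean of 0.5 FPKM over all 10 livers, and 8 did not. FPKM counts sequenced fragments in proportion to gene length and to the reads assigned in that liver, so levels of different genes can be set side by side as far as the gene lengths used are right. The lengths behind these values differed by more than 10% from the merged exons of GENCODE vM21 in 35 of the 45 members, at 0.310 to 2.83 times the merged length. Orders of level and ratios between members therefore hold for the authors' gene models.

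Carriers of this family sit in the inner mitochondrial membrane, with a few in other membranes, and move metabolites, nucleotides, cofactors and ions between the matrix and the cytosol. Most exchange one substrate for another, such as ADP for ATP. In liver they link mitochondria to the urea cycle, gluconeogenesis, fatty acid oxidation and lipid synthesis, since each of these pathways runs partly in the matrix and partly in the cytosol.

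The livers came from wild-type (WT) mice fed a high-fat diet without choline whose protein is supplied as L-amino acids (CDAHFD), which causes nonalcoholic steatohepatitis. In 5 samples the mice had been injected intravenously with an adeno-associated virus (AAV) encoding miR-181d-5p, and in the other 5 with a control AAV. All 10 thus shared the diet and a vector, and no liver without either was analysed here. The sources used here give no strain, age, sex, vector dose, vector promoter or time of harvest. Since no label says that the 5 samples of a group are 5 animals, a p-value here reflects the variation among samples, which may be technical.

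The sequence of the delivered microRNA is shown first, because carriers that hold a match to it are described further on. Mature mouse miR-181 sequences are from RefSeq (GRCm38.p6), with the seed, bases 2 to 8 from the 5′ end, in capitals.
mmu-miR-181d-5p: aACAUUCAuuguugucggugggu
mmu-miR-181a-5p: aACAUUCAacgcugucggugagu
The natural miR-181d gene lies on the reverse strand of chromosome 8, with the mature arm at chr8:84178759-84178781. Both sequences carry the same seed and differ beyond it. The table holds no row for the microRNA itself, so its level in each liver was not analysed here.

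Sequencing gave 18985912 to 20657019 assigned reads per liver, recovered from the FPKM values as whole reads. The labelled tissue fits its markers: the 14 hepatocyte markers, led by albumin, summed to 39180 to 44550 FPKM in miR-181d-5p livers and 37510 to 44790 FPKM in control livers. Markers of skeletal muscle and fat, which express some carriers strongly, were near 0, with 9 genes summing to at most 0.466 FPKM in any miR-181d-5p liver and at most 0.395 FPKM in any control liver. In bulk tissue, fewer cells of a type and less RNA per cell cannot be told apart. Marker sums of other liver cell types differed in how far they overlapped. The 12 stellate and fibroblast markers summed to 396 to 551 FPKM in miR-181d-5p livers and 556 to 752 FPKM in control livers. For the 12 macrophage markers the sums were 1667 to 2928 FPKM and 2336 to 3226 FPKM in the same order, and for the 9 cholangiocyte markers 121 to 396 FPKM and 291 to 539 FPKM. The 10 endothelial markers summed to 206 to 218 FPKM in miR-181d-5p livers and 205 to 238 FPKM in control livers, and the 9 lymphocyte markers to 11.3 to 19.4 FPKM and 10.9 to 20.7 FPKM in the same order. The stellate sums did not overlap between the groups, and the other sums did. Sums follow abundant genes, such as Spp1 among the cholangiocyte markers, at means of 204 and 329 FPKM in the same order. By gene, 12 of 12 stellate, 9 of 9 cholangiocyte, 9 of 12 macrophage, 7 of 10 endothelial and 5 of 7 tested lymphocyte markers were lower. Their median log2 changes were -0.38, -0.59, -0.26, -0.09 and -0.14, and none passed over all genes. Of all genes tested 45.5% were higher. The stellate, macrophage and cholangiocyte markers all averaged at least 0.5 FPKM, and their part in the carrier results was not tested.

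Carrier levels covered a wide range. By mean level over all 10 livers, 5 carriers stood above 100 FPKM, 16 between 10 and 100 FPKM and 15 between 1 and 10 FPKM. Slc25a29, a carrier of basic amino acids, was the tested member closest to the minimum at 0.948 FPKM, and Slc25a35 fell just short of it at 0.492 FPKM. The 5 most abundant carriers, Slc25a5, Slc25a47, Slc25a3, Slc25a39 and Slc25a1, held 68.2% of the summed carrier FPKM. The family as a whole summed to 2120 ± 145 FPKM in miR-181d-5p livers and 2053 ± 115 FPKM in control livers (SD, n = 5 each), a share of 0.445% ± 0.0308 and 0.439% ± 0.0265 of all FPKM in the same order.

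**Figure D1:**
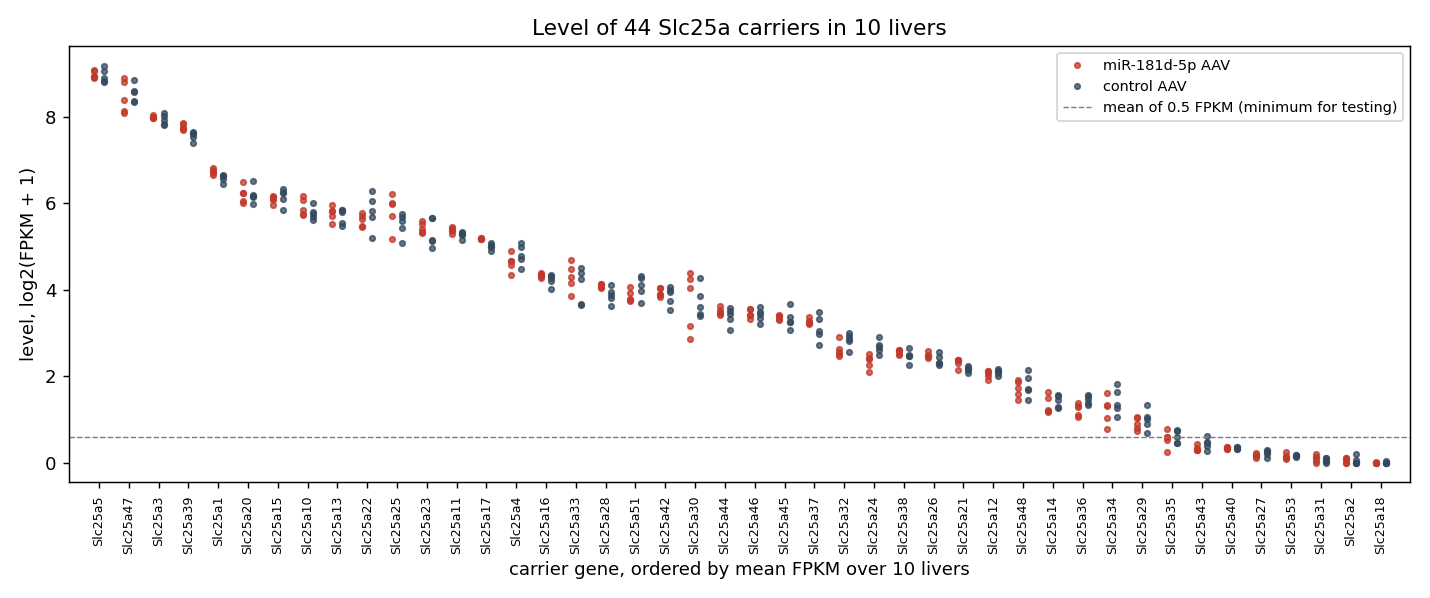
Level of 44 carriers as log2(FPKM + 1), with carriers on the horizontal axis in falling order of mean FPKM over all livers. Each dot is a liver, red for miR-181d-5p AAV and dark blue for control AAV, and the dashed line marks a mean of 0.5 FPKM, below which a carrier was not tested. The levels run from Slc25a5 at a mean of 502 FPKM to Slc25a18 at the floor, and the dots of both groups cover much the same heights for most carriers.

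Not one carrier passed the test across all genes. With limma, 0 of the 37 tested carriers had a Benjamini-Hochberg adjusted p under 0.05, beside 0 of 12053 genes (0%), and limma voom on the recovered reads also called 0 carriers and 0 genes. At an unadjusted p under 0.05 there were 4 carriers higher in miR-181d-5p livers (Slc25a1, Slc25a17, Slc25a28 and Slc25a39) and 2 lower (Slc25a24 and Slc25a36). That is 10.8% of the carriers higher, where 5.04% of all genes were, and 5.41% lower, where 9.63% of all genes were. Over all genes the split was 607 higher and 1161 lower. It was 345 higher and 1260 lower once every liver was scaled to the same FPKM sum, and 997 higher and 942 lower after quantile normalization. Groups did not overlap in 3 carriers, all higher, or 8.11% (all genes: 1.02% higher and 1.45% lower). On a common FPKM sum that count was 0 (all genes: 74 higher and 216 lower). With TMM scaling and with voom the 3 were Slc25a17 and Slc25a39, higher, and Slc25a24, lower. All genes without overlap numbered 178 higher and 222 lower with TMM scaling, and 191 and 219 with voom. After quantile normalization the 3 were Slc25a17 and Slc25a21, higher, and Slc25a24, lower (all genes: 231 higher and 179 lower). Of the 37 carriers 23 were higher (62.2%, where 45.5% of all genes were higher). Their median log2 change was 0.04, where that of all genes was -0.02, and single carriers ran from -0.34 to 0.31. Every log2 change here is the miR-181d-5p mean minus the control mean of log2(FPKM + 1), which understates the change of low genes.

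**Figure D2:**
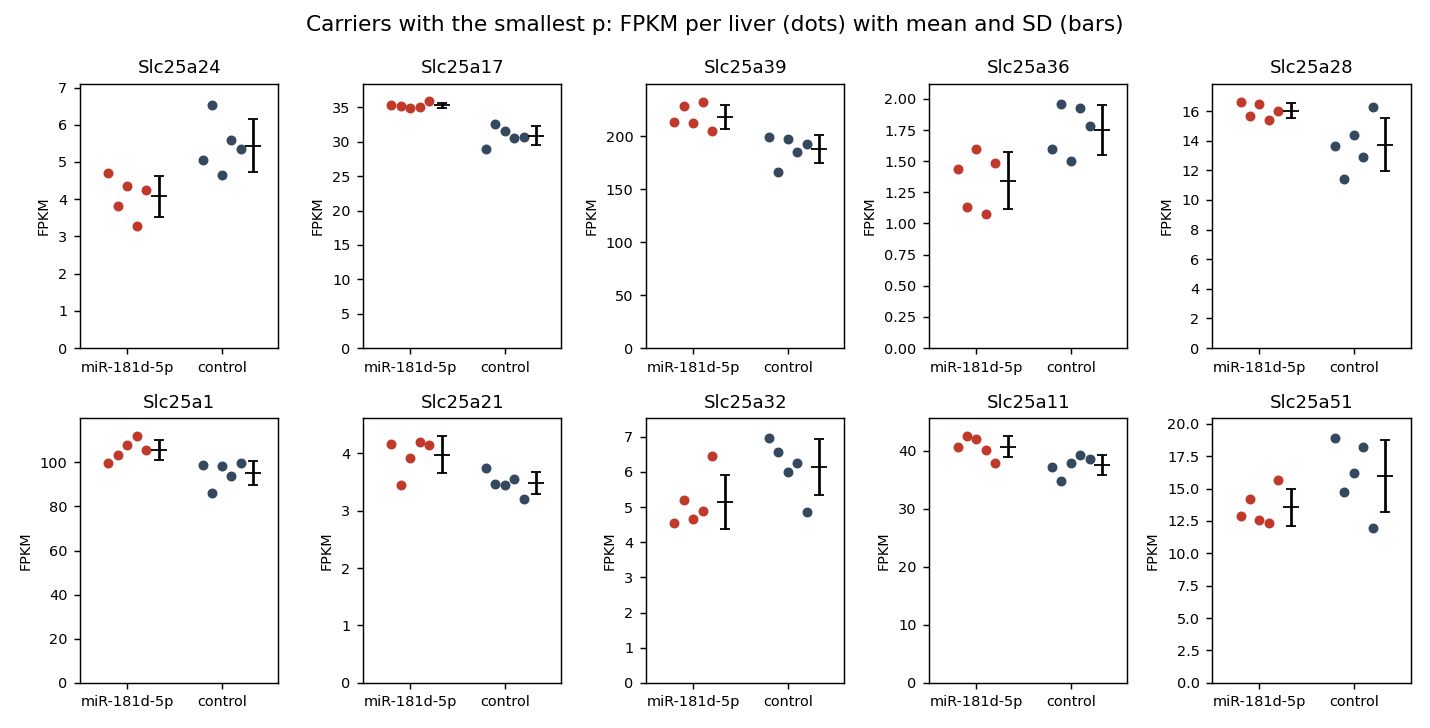
FPKM of the 10 carriers with the smallest p among those with a mean of at least 1 FPKM, each dot a liver, with miR-181d-5p AAV on the left of each panel and control AAV on the right, axes from 0, and black bars for the mean and SD of 5 livers. Slc25a17 and Slc25a39 show the 2 dot clouds apart, with Slc25a17 between 34.9 and 35.9 FPKM in miR-181d-5p livers, while the other panels overlap or, for Slc25a1, nearly touch.

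Carriers of iron, glutathione and haem precursors were higher in all 4 tested members, also under each other scaling. The median log2 change was 0.18, and 2 members had an unadjusted p under 0.05. Slc25a39, which imports glutathione into mitochondria, stood at 213, 229, 212, 232 and 205 FPKM in miR-181d-5p livers 1 to 5, against 199, 166, 197, 185 and 192 FPKM in control livers 1 to 5. Every miR-181d-5p liver lay above every control liver, but the gap, between 205 and 199 FPKM, was smaller than the SD of either group. The means were 218 ± 11.6 FPKM and 188 ± 13.4 FPKM (SD, n = 5 each), 116.3% of control. The log2 change was 0.22 (SE 0.07) with an adjusted p of 0.242 by limma, so Slc25a39 did not pass. On a common FPKM sum the groups overlapped, with miR-181d-5p liver 5 at a scaled 436 and control liver 1 at a scaled 451.

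Slc25a28, mitoferrin-2, which brings iron into mitochondria of most tissues, stood at 16.6, 15.7, 16.5, 15.4 and 16.0 FPKM in miR-181d-5p livers, against 13.6, 11.4, 14.4, 12.9 and 16.3 FPKM in control livers. Control liver 5 alone among the controls lay inside the range of the miR-181d-5p livers. The log2 change was 0.22 (SE 0.08) with an adjusted p of 0.292. Its relative Slc25a37, mitoferrin-1, best known for iron uptake in red cell precursors, stood at 8.24, 9.31, 8.52, 8.63 and 8.38 FPKM in miR-181d-5p livers, against 8.99, 10.2, 7.31, 6.91 and 5.62 FPKM in control livers. Here the control livers spread to both sides of the miR-181d-5p livers (log2 change 0.15, SE 0.12, adjusted p = 0.573). The log2 change was 0.05 without control liver 5 and 0.24 without control liver 2. Erythroid markers spread widely and overlapped, with sums of 172 to 763 FPKM in miR-181d-5p livers and 166 to 1168 FPKM in control livers. Slc25a38, a glycine carrier needed for haem synthesis, stood at 4.90 ± 0.190 FPKM and 4.55 ± 0.559 FPKM in the same order. Slc25a40, the close relative of Slc25a39, lay under the minimum at 0.266 ± 0.0173 FPKM in miR-181d-5p livers and 0.261 ± 0.0197 FPKM in control livers. Its FPKM fits a gene length of 23418 bases, while its merged exons in GENCODE vM21 cover 8386 bases, and a longer length gives a lower FPKM for the same reads.

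Carriers of citrate and other di- and tricarboxylates were higher in 3 of 3 members under each scaling. Their median log2 change was 0.15. Slc25a1, the citrate carrier, which exports the carbon used for cytosolic fatty acid and sterol synthesis, stood at 99.6, 103, 108, 112 and 106 FPKM in miR-181d-5p livers, against 98.6, 86.2, 98.2, 93.7 and 99.6 FPKM in control livers. The groups touched: the lowest miR-181d-5p liver was at 99.58 FPKM and the highest control liver at 99.57 FPKM. The log2 change was 0.15 (SE 0.06) with an adjusted p of 0.315. On a common FPKM sum the lowest miR-181d-5p liver was at a scaled 209 and the highest control liver at a scaled 224. Slc25a21, which carries oxodicarboxylates of lysine and tryptophan breakdown, stood at 4.17, 3.45, 3.92, 4.19 and 4.15 FPKM in miR-181d-5p livers, against 3.74, 3.46, 3.45, 3.56 and 3.21 FPKM in control livers. Only miR-181d-5p liver 2 fell among the control livers (log2 change 0.15, SE 0.07, adjusted p = 0.359). Slc25a10, the dicarboxylate carrier, overlapped between the groups, at 59.7 ± 8.53 FPKM in miR-181d-5p livers and 53.6 ± 5.80 FPKM in control livers.

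Carriers of coenzymes, vitamins and nucleotides split, with 5 of 9 higher and 4 lower. Slc25a17, which sits in peroxisomes rather than mitochondria and carries coenzyme A and other nucleotide cofactors, stood at 35.4, 35.2, 34.9, 35.0 and 35.9 FPKM in miR-181d-5p livers, against 28.9, 32.6, 31.6, 30.6 and 30.7 FPKM in control livers. All 5 miR-181d-5p livers lay above all 5 control livers and within 1 FPKM of each other. The means were 35.3 ± 0.396 FPKM and 30.9 ± 1.37 FPKM (SD, n = 5 each), 114.4% of control, and the log2 change was 0.19 (SE 0.06) with an adjusted p of 0.240. On a common sum miR-181d-5p liver 3 and control liver 2 crossed, at a scaled 72.8 and 73.4.

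Lower members of this role included carriers of nucleotides, folate and NAD. Slc25a36, a pyrimidine nucleotide carrier, stood at 1.43, 1.13, 1.596, 1.07 and 1.48 FPKM in miR-181d-5p livers, against 1.594, 1.96, 1.499, 1.93 and 1.78 FPKM in control livers. The groups overlapped through miR-181d-5p liver 3 (log2 change -0.23, SE 0.09, adjusted p = 0.269). For Slc25a32, which carries folate and FAD, the livers stood at 4.54, 5.20, 4.66, 4.90 and 6.46 FPKM with miR-181d-5p, against 6.97, 6.57, 5.99, 6.26 and 4.87 FPKM with control AAV. The groups overlapped through the livers numbered 5 (log2 change -0.21, SE 0.10, adjusted p = 0.361). The other livers lay at 4.54 to 5.20 FPKM with miR-181d-5p and at 5.99 to 6.97 FPKM with control AAV. That gap follows from setting aside the livers that overlapped, so it is no evidence of a difference. Slc25a51, the NAD carrier, gave 12.9, 14.2, 12.6, 12.3 and 15.7 FPKM in miR-181d-5p livers, against 18.9, 14.7, 16.2, 18.2 and 11.9 FPKM in control livers, again with control liver 5 lowest (log2 change -0.21, SE 0.11, adjusted p = 0.399). Overlap was also seen in the other pyrimidine nucleotide carrier Slc25a33 at 114.9% of control, the coenzyme A related carriers Slc25a16 and Slc25a42 at 108.0% and 105.8%, and the S-adenosylmethionine carrier Slc25a26 at 109.6%.

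Carriers of ATP-Mg and phosphate, which set the adenine nucleotide content of the matrix under control of calcium, split, with 2 higher and 1 lower. Slc25a24 had the smallest p of the family and stood at 4.69, 3.81, 4.34, 3.29 and 4.24 FPKM in miR-181d-5p livers, against 5.06, 6.54, 4.66, 5.58 and 5.35 FPKM in control livers. Only miR-181d-5p liver 1 reached the range of the control livers, just above control liver 3. The means were 4.08 ± 0.541 FPKM and 5.44 ± 0.707 FPKM (SD, n = 5 each), 74.9% of control. The log2 change was -0.34 (SE 0.10) with an adjusted p of 0.235. Slc25a25 went the other way, at 35.0, 72.9, 51.5, 62.8 and 63.2 FPKM in miR-181d-5p livers, against 47.4, 52.6, 42.3, 32.8 and 50.7 FPKM in control livers. It had the largest positive log2 change of the tested carriers, 0.31 (SE 0.18), and also a wide spread, with miR-181d-5p liver 1 below 4 of 5 control livers (adjusted p = 0.428). Single livers moved the value both ways: it was 0.47 without miR-181d-5p liver 1, 0.21 without miR-181d-5p liver 2 and 0.20 without control liver 4. Slc25a23 stood at 42.4 ± 3.396 FPKM in miR-181d-5p livers and 39.5 ± 9.23 FPKM in control livers.

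**Figure D3:**
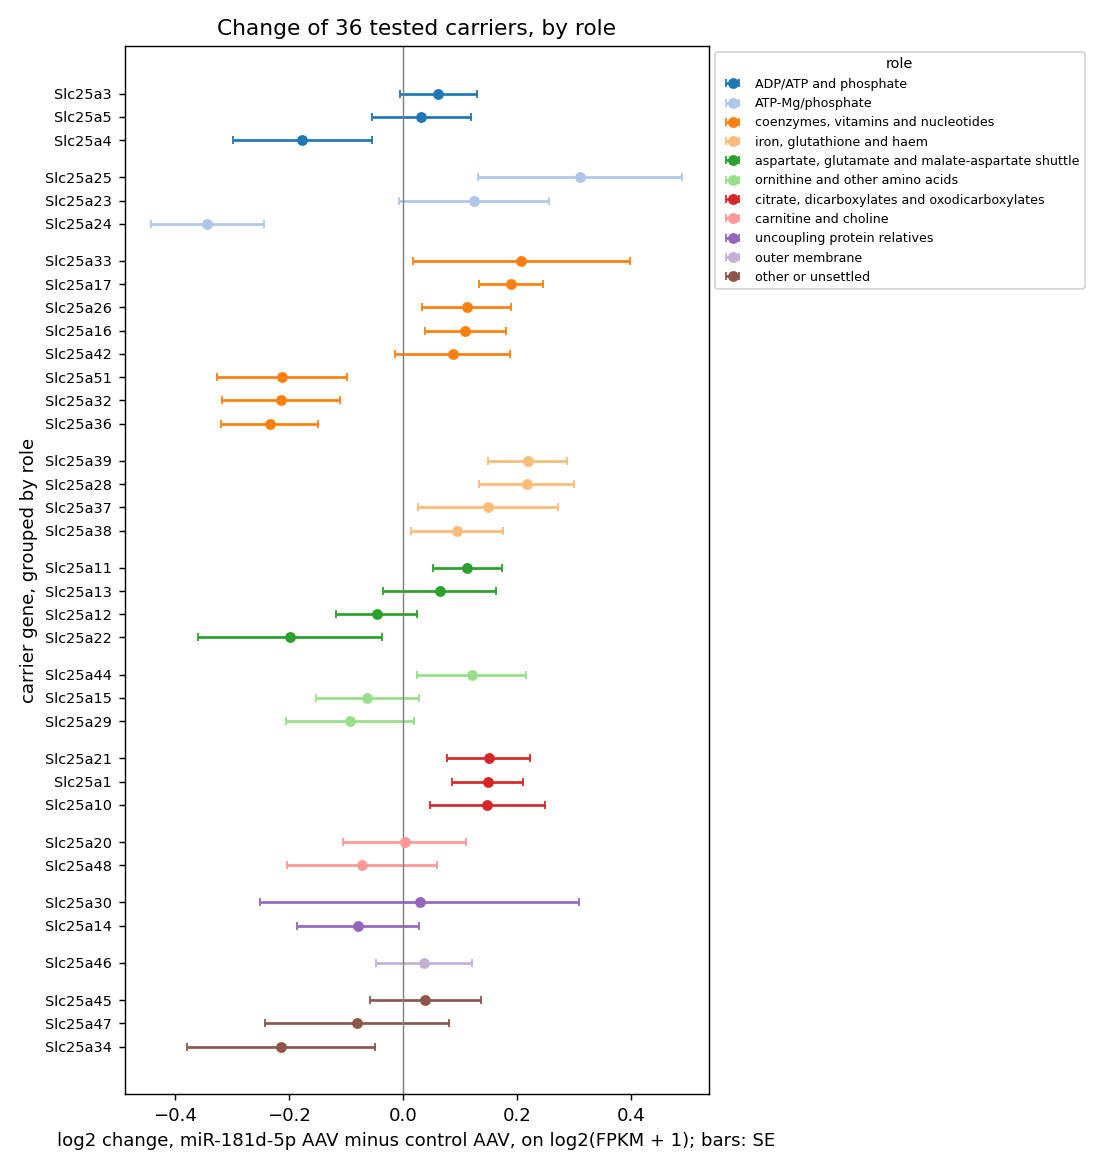
Log2 change of 36 tested carriers, miR-181d-5p AAV minus control AAV, with bars for the SE, grouped and coloured by role from ADP/ATP carriers at the top to carriers of unsettled substrate at the bottom. All points lie between -0.34 and 0.31, and the iron, glutathione and haem carriers and the citrate and dicarboxylate carriers lie to the right of 0.

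The carriers that exchange ADP for ATP and import phosphate for ATP synthesis were the most abundant. Slc25a5, the main adenine nucleotide translocator of proliferating and liver cells, stood at 492, 536, 474, 545 and 488 FPKM in miR-181d-5p livers, against 444, 474, 535, 455 and 580 FPKM in control livers. The control livers enclosed the miR-181d-5p livers (log2 change 0.03, SE 0.09, adjusted p = 0.881). Processed copies of this gene are known, and how the counting treated reads that match several places was not examined, so its level is uncertain. Slc25a4, the isoform of heart and muscle, was far lower, at 23.9 ± 3.43 FPKM in miR-181d-5p livers and 27.3 ± 4.59 FPKM in control livers, so Slc25a5 exceeded it 21.2-fold and 18.2-fold in the same order. Slc25a3, the phosphate carrier, stood at 253, 253, 252.2, 264 and 250.2 FPKM in miR-181d-5p livers, against 228, 223, 258, 242 and 270.2 FPKM in control livers (log2 change 0.06, SE 0.07, adjusted p = 0.683). The testis isoform Slc25a31 was near 0, with 14 reads over the miR-181d-5p livers and 8 reads over the control livers.

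Members of the malate-aspartate shuttle and its partners, which move reducing power from the cytosol into mitochondria, overlapped between the groups. Slc25a13, citrin, the aspartate-glutamate carrier of liver, stood at 51.0, 61.3, 45.0, 56.0 and 55.3 FPKM in miR-181d-5p livers, against 54.5, 56.5, 56.5, 43.7 and 45.6 FPKM in control livers (log2 change 0.06, SE 0.10, adjusted p = 0.777). It exceeded its paralog Slc25a12, the form of brain and muscle, 17.1-fold in miR-181d-5p livers and 15.7-fold in control livers. Slc25a11, which exchanges malate for oxoglutarate, stood at 40.6, 42.6, 42.0, 40.2 and 37.9 FPKM in miR-181d-5p livers, against 37.3, 34.7, 37.9, 39.2 and 38.6 FPKM in control livers. Here 4 of 5 miR-181d-5p livers lay above every control liver (log2 change 0.11, SE 0.06, adjusted p = 0.396), and exons of Rnf167 lie across it on the other strand. The glutamate carrier Slc25a22 spread widely in the controls, at 48.1 ± 4.72 FPKM in miR-181d-5p livers and 56.9 ± 15.6 FPKM in control livers. Its paralog Slc25a18 had 1 read over the miR-181d-5p livers and 2 reads over the control livers.

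For the urea cycle, Slc25a15, which exchanges ornithine for citrulline, stood at 70.7, 66.1, 69.8, 69.1 and 61.2 FPKM in miR-181d-5p livers, against 79.8, 67.8, 74.4, 75.7 and 56.4 FPKM in control livers. The control livers enclosed the miR-181d-5p livers (log2 change -0.06, SE 0.09, adjusted p = 0.760). Its paralog Slc25a2 had 5 reads over each group. Slc25a44, a carrier of branched-chain amino acids, stood at 108.8% of control.

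Fatty acid oxidation depends on Slc25a20, which trades acylcarnitine for carnitine across the inner membrane. It stood at 65.0, 74.9, 63.3, 74.4 and 88.7 FPKM in miR-181d-5p livers, against 70.3, 72.7, 89.9, 61.8 and 71.1 FPKM in control livers. The means were nearly equal (100.2% of control), with a log2 change of 0.00 (SE 0.11) and an adjusted p of 0.993. Slc25a48, for which a role in mitochondrial choline uptake has been described, stood at 2.65, 2.32, 2.03, 2.76 and 1.72 FPKM in miR-181d-5p livers, against 2.90, 3.39, 2.24, 1.72 and 2.19 FPKM in control livers (log2 change -0.07, SE 0.13, adjusted p = 0.818). The lowest livers of both groups were alike.

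Slc25a47, a carrier found almost solely in liver, was the most abundant member after Slc25a5. It stood at 271, 476, 278, 337 and 447 FPKM in miR-181d-5p livers, against 377, 385, 461, 323 and 331 FPKM in control livers. The miR-181d-5p livers formed the wider range, with livers 2 and 5 high and livers 1 and 3 low (log2 change -0.08, SE 0.16, adjusted p = 0.835). Slc25a30, a relative of the uncoupling proteins, varied most of the carriers with at least 10 FPKM in miR-181d-5p livers, with a coefficient of variation of 45.1% there and 29.3% in control livers. Its lowest values were in miR-181d-5p livers 2 and 3, at 6.31 and 7.98 FPKM, and its highest in miR-181d-5p liver 1, at 19.99 FPKM. The outer membrane protein Slc25a46, which shapes mitochondrial fusion and fission, stood at 102.7% of control. Other tested carriers also overlapped between the groups: Slc25a45 stood at 102.1% of control, Slc25a12 at 95.9%, Slc25a14 at 92.3%, Slc25a29 at 86.3% and Slc25a34 at 78.3%, with adjusted p from 0.545 to 0.869. Besides Slc25a35 and Slc25a40, the members under the minimum with more than a few reads were Slc25a43, Slc25a27 and Slc25a53, at means of 0.309, 0.144 and 0.111 FPKM over all livers.

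**Figure D4:**
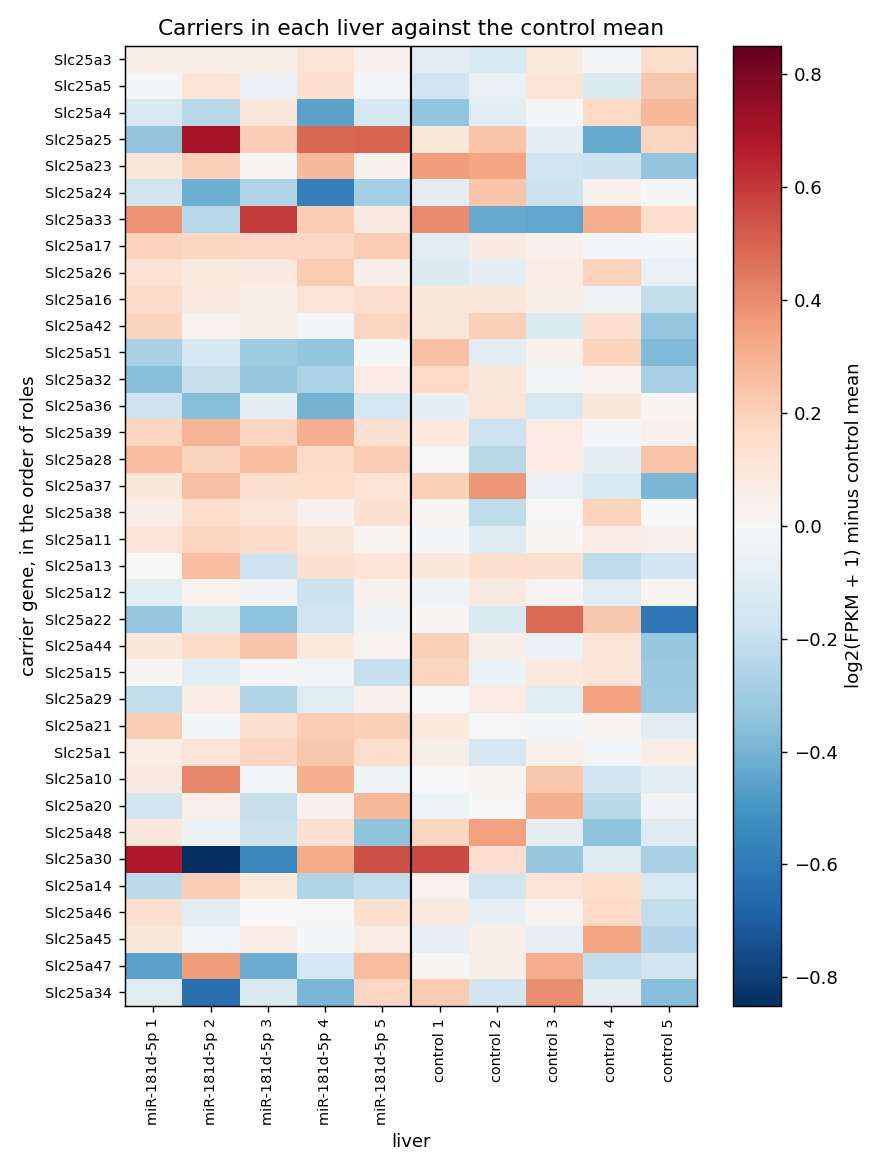
The 36 tested carriers shown (rows, in the order of roles) in each liver (columns, miR-181d-5p AAV left of the black line and control AAV right of it), coloured by log2(FPKM + 1) minus the control mean, red for higher and blue for lower. Slc25a17, Slc25a39 and Slc25a28 form even rows of red in all 5 miR-181d-5p livers. The map runs from -0.84, in the row of Slc25a30, to 0.7, in the row of Slc25a25, and control liver 5 holds many blue cells.

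Spread within a group was smaller in miR-181d-5p livers, as it was across the transcriptome. The median SD of log2 values over the 37 carriers was 0.102 in miR-181d-5p livers and 0.176 in control livers, and 25 carriers (67.6%) varied less with the microRNA vector, where 76.1% of all genes did. Control liver 5 gave the lowest control value for 15 of the 37 carriers (40.5%), near its share of 37.8% over all genes tested. Without that liver 5 carriers (13.5%) had an unadjusted p under 0.05 in the lower direction in place of 2, near the 14.9% of all genes that did. The median log2 change of the carriers was 0.00. The added names were Slc25a22, Slc25a32 and Slc25a51, chosen after their values were seen.

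The delivered microRNA pairs with 3′ UTRs through its seed, so matches were searched in the longest annotated 3′ UTR of each gene (GENCODE vM21, mm10). The letters searched, on the strand of the transcript, were TGAATGTA (8mer), TGAATGT (7mer-m8) and GAATGTA (7mer-A1), a 7mer being counted only outside an 8mer. Of the 37 tested carriers 7 held a match (18.9%), where 23.0% of 11770 genes did, and 3 held an 8mer (8.11%, where 5.93% of genes did). With Slc25a53, a carrier under the minimum for testing, 8 carriers held 15 matches, 3 of them 8mers, 7 of them 7mer-m8 and 5 of them 7mer-A1. The 8mers are shown with 10 bases to either side, the match in capitals, as the longest of the 3 kinds, which add to the 7mer-m8 an A opposite base 1 of the microRNA.
Slc25a36: ctaacctttcTGAATGTAccccagtgga
Slc25a12: cagccatgttTGAATGTAtccagtttca
Slc25a37: gagtttaactTGAATGTAaaataataaa
The Slc25a36 8mer lies at chr9:97075780-97075787 in exon 7 of 7 and has 2 7mer-m8 matches beside it in the same 3′ UTR. That of Slc25a12 lies at chr2:71274691-71274698 in exon 18 of 18, and that of Slc25a37 at chr14:69244196-69244203 in exon 4 of 4, all on the reverse strand.

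Slc25a32 held the most matches, 4 in a 3′ UTR of 4739 bases, of which the 7mer-m8 is at chr15:39095655-39095661 on the reverse strand, in exon 7 of 7.
Slc25a32: aataatttgaTGAATGTtctttttttc
Of the 7 tested carriers with a match 5 were lower in miR-181d-5p livers (Slc25a12, Slc25a32, Slc25a36, Slc25a48 and Slc25a51) and 2 were higher (Slc25a25 and Slc25a37). Of the 30 without a match 9 were lower. The median log2 change was -0.07 with a match and 0.06 without, where over all genes it was -0.05 and -0.01, with 64.5% and 51.8% of genes lower. None of the 7 passed over all genes, and the difference between carriers with and without a match was not tested. Matches were unevenly placed: Slc25a36, Slc25a12 and Slc25a32 have 3′ UTRs of 4085, 4092 and 4739 bases, where the median tested carrier has 1189. Of the 6 carriers with an unadjusted p under 0.05, Slc25a36 alone held a match, and Slc25a24 held none. A match is a stretch of letters, and its use in these livers was not tested.

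Family members that carry other symbols were read beside the carriers. Ucp2, an inner membrane protein abundant in macrophages, stood at 128 ± 21.1 FPKM in miR-181d-5p livers and 158 ± 18.0 FPKM in control livers (log2 change -0.31, SE 0.12, adjusted p = 0.292). Of the 12 macrophage markers 9 were lower and 3 higher, and their sums, given above, overlapped. Lyz2, the most abundant, stood at 1203 ± 375 FPKM in miR-181d-5p livers and 1456 ± 318 FPKM in control livers. The 3 higher were Marco, Clec4f and Timd4, with log2 changes of 0.23, 0.12 and 0.21, none past the test. The 9 lower included Adgre1 and Mpeg1, with log2 changes of -0.36 and -0.43 (adjusted p = 0.221 for both by limma). In these 2 genes the groups did not overlap, where 1.45% of all genes were lower without overlap. The part of macrophages in the Ucp2 value was not tested. Mtch2 and Mtch1, carrier relatives of the outer membrane, had log2 changes of 0.12 and 0.02. Ucp1, the uncoupling protein of brown fat, was listed at 0 in every liver, and Ucp3 stood under 0.02 FPKM in both group means.

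Genes that work with the carriers were mostly higher by small amounts, where 45.5% of all genes were higher, and none passed over all genes. Hepatocyte markers stood higher by as much, in 13 of 14 with a median log2 change of 0.08, and their part in these lists was not tested. Of 13 genes of carrier import, the outer membrane pore and the chaperones and translocase that insert carriers, 12 were higher (11 on a common FPKM sum), with a median log2 change of 0.09. Timm10 and Timm9, small chaperones of the space between the membranes, stood at 31.2 ± 1.73 and 16.9 ± 1.31 FPKM in miR-181d-5p livers and 27.2 ± 2.95 and 14.7 ± 1.63 FPKM in control livers (adjusted p = 0.308 and 0.325). Of 18 genes of general mitochondrial content 17 were higher (16 after quantile normalization), with a median of 0.08 and none at an unadjusted p under 0.05. Their summed level was 2995 to 3263 FPKM in miR-181d-5p livers and 2695 to 3128 FPKM in control livers. Of 12 other inner membrane transporters 9 were higher, with a median of 0.09.

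Enzymes that use what the carriers move were higher in 15 of 24 and lower in 9, with a median of 0.08. Over all genes 45.5% were higher. At an unadjusted p under 0.05, 3 of the 24 were higher and 0 lower, where 5.04% of all genes were higher and 9.63% lower. Me1, malic enzyme, which makes cytosolic NADPH, stood at 25.1 ± 2.65 FPKM in miR-181d-5p livers and 20.2 ± 3.09 FPKM in control livers (log2 change 0.31, SE 0.10, adjusted p = 0.250). Gpd1, the cytosolic enzyme of the glycerol phosphate shuttle, stood at 134 ± 12.2 FPKM and 110 ± 17.9 FPKM in the same order (adjusted p = 0.269), and Aldh7a1, an enzyme of lysine breakdown, at 101 ± 5.78 FPKM and 90.4 ± 5.80 FPKM (adjusted p = 0.315).

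Regulators of mitochondrial gene expression were lower in 7 of 10 and higher in 3, with a median log2 change of -0.09. Over all genes 45.5% were higher, and the median was -0.02. Ppargc1a, a coactivator that drives mitochondrial biogenesis, stood at 0.423 ± 0.0796 FPKM in miR-181d-5p livers and 0.686 ± 0.109 FPKM in control livers (log2 change -0.24, SE 0.07, adjusted p = 0.232). Its miR-181d-5p mean lay under the minimum of 0.5 FPKM, so it was tested only through its higher control level. It counts among the 7 lower, and with a minimum of 1 FPKM it was not tested. The related Pprc1 had a log2 change of -0.26 and Gabpb1, a subunit of a factor that binds promoters of respiratory genes, one of 0.20 (adjusted p = 0.302 and 0.298).

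The carriers with the smallest p lie at the following places on mm10. Slc25a24 spans chr3:109123149-109168457, Slc25a17 chr15:81318911-81360812, Slc25a39 chr11:102402985-102407946 and Slc25a36 chr9:97074961-97111157. Slc25a28 spans chr19:43663801-43674881, Slc25a1 chr16:17925223-17928219, Slc25a21 chr12:56712634-57197472 and Slc25a32 chr15:39091231-39112716. Slc25a11 lies at chr11:70644196-70647479 and Slc25a51 at chr4:45395923-45408766. Exons of another gene lie on the opposite strand of Slc25a11 (Rnf167), Slc25a21 (Pax9), Slc25a25 (Naif1) and Slc25a37 (Gm27223 and Gm31748). The same holds for Slc25a10, Slc25a23, Slc25a26, Slc25a33 and Slc25a46, among others. The strand setting of the authors' counting is not given, so reads of such pairs may be mixed.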

How the data were processed

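Per the labels' protocols, mirVana extraction of total RNA was followed by TruSeq Stranded mRNA library preparation. The submitters' processing notes name, without role or order, DESeq2 1.18.1, HTSeq 0.13.5, HISAT2 2.2.1, Trimmomatic 0.38, FastQC 0.11.9 and R 3.4.1, and the mm10 build. The authors deposited 1 table of FPKM with 1 column per liver, matched to samples by group and number. Whole reads, within 0.02 of a read, were recovered for 17273 of 17274 genes (99.994%), 57 of them at 0 in every liver. This was done by searching for the gene length and library total behind each value, which put the totals at 18985912 to 20657019 reads. The smallest length that fitted was taken, so read numbers of genes with few reads are uncertain.

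The test was limma 3.58.1 in R 4.3.3 on log2(FPKM + 1) of the 12053 genes averaging 0.5 FPKM or more over all 10 livers, with group as the only term, a mean-variance trend and Benjamini-Hochberg adjustment over all genes at 0.05. It was checked on simulated normal values, drawn independently for each liver with the same SD in both groups. The smaller spread of the real miR-181d-5p livers and effects shared by the genes of a liver were not covered. Fewer reads mean less precision: tested carriers had 23 to 16826 reads per liver. Values per group are means with SD. TMM factors (trimmed mean of M values) were computed by the standard formula. On a common sum, each liver's FPKM were scaled to add up to the same total, 1000000. No set test was run. Of the carriers, 1 enters the counts and sums but is not reported here by itself or drawn.

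The members and lists were chosen with earlier results of these data known. The rule for values in every liver took the 10 carriers with the smallest p and a mean of at least 1 FPKM, the 5 most abundant, and Slc25a13, Slc25a15, Slc25a20, Slc25a25, Slc25a37 and Slc25a48 as carriers with known roles in liver or iron handling. Of each other list at most 3 genes with the smallest p were named. Alternatives were other pseudocounts, filters, scalings, weights, a replicate block, voom and leaving out each liver.

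Within groups, every pair of livers differed beyond counting noise (lowest chi-square per degree of freedom 9.51). The labels give no batch. 3′ UTRs and positions come from GENCODE vM21, and microRNA sequences from RefSeq. Python 3.11.15 with numpy 2.4.6, pandas 2.3.3 and matplotlib 3.10.9 did the rest.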

Additional observations from a re-analysis of the deposited data

Results flagged for a closer look

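In Slc25a3, the phosphate carrier, miR-181d-5p liver 4 stood at 264.3 FPKM, apart from the other 4 livers of its group, which lay between 250.2 and 253.2 FPKM. The distance to the next liver was 0.790 of the range of the group, above the limit of 0.71 for 5 samples. The control livers reached 270.2 FPKM, so the value lies inside the range of all livers. Of 74 groups of 5 livers examined, 1 was singled out this way, where chance gives about 1 in 20.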

How the results depend on the processing

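Under 21 alternatives no carrier passed over all genes. Slc25a17, Slc25a24 and Slc25a39 kept an unadjusted p under 0.05 in all 21, Slc25a36 in 20, Slc25a28 in 18 and Slc25a1 in 13. Their adjusted p ran from 0.152 to 0.595. Of the 19 carriers given in every liver 15 kept their direction. Slc25a20 reversed with a common FPKM sum (-0.0256), quantile normalization (-0.0363) and array weights (-0.0143), Slc25a5 and Slc25a48 with quantile normalization (-0.00886 and 0.00679), and Mtch1 in those 3 settings (-0.0082, -0.00576 and -0.0218). Leaving out 1 liver each, log2 changes ran from -0.0683 to 0.0783 for Slc25a20, -0.00704 to 0.0887 for Slc25a5, -0.189 to 0.0131 for Slc25a47, -0.157 to 0.0158 for Slc25a48 and -0.0394 to 0.0568 for Mtch1. Carriers without overlap numbered 0 with a common sum and 3 to 4 without single livers. All genes without overlap numbered 74 higher and 216 lower with a common sum. Without single livers they numbered 154 to 343 higher and 185 to 469 lower. Carriers lower at an unadjusted p under 0.05 numbered 5 with array weights and 2 to 5 without single livers, and those higher 2 to 5. All genes numbered 1297 lower with array weights, and 674 to 1794 lower and 372 to 793 higher without single livers. Genes past an adjusted p of 0.05 numbered 0 to 3 without single livers: Inhbb, Jdp2 and Slc35d1 without control liver 1, AA986860 without control liver 5 and Npy without miR-181d-5p liver 3. With a replicate block 1 gene (Ccn2, adjusted p = 0.0137) passed. At an unadjusted p under 0.05, 3 carriers were then higher and 1 lower (all genes: 384 higher and 836 lower). The labels do not say whether equal numbers pair the livers. Deviations of same-numbered livers correlated at -0.283 to 0.015, and 0 of 5 matched best with their own number. With 5 livers per group this cannot settle whether they were paired. Low carriers are limited by depth, with 23 to 61 reads per liver for Slc25a29.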
